A study of Mus musculus with 6 samples.

Results

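The mRNA levels of 10 genes for the breakdown of lysine, histidine and the branched-chain amino acids (leucine, isoleucine and valine) were compared between transgenic and wild-type mouse hearts under pressure load. The genes were Aass, Hal, Bcat2, Bckdha, Bckdhb, Dbt, Ivd, Mccc1, Hibch and Bckdk, 10 of 19938 genes that had an array row annotated with a single gene symbol. The set was chosen by pathway with results of this same comparison already known, and each gene had 1 row, so the values below describe the genes and give no independent support for a difference. All 6 hearts came from male FVB mice that had undergone transverse aortic constriction (narrowing of the aorta by surgery, which makes the left ventricle pump against a raised pressure) at 8 weeks of age, and were taken 14 weeks after surgery. In 3 of the mice (A2a-R transgenic) an inducible, heart-specific transgene over-expressed the adenosine A2a receptor, and 3 littermates without it were wild type. Neither the promoter nor the inducing agent of the transgene is given in the sources used here. Each heart was measured on 1 Affymetrix Mouse Gene 1.0 ST array, values are on the log2 scale, so that a difference of 1 is a doubling, and their precision is limited by the number of arrays. Hearts without surgery were not analysed here, so the transgene and its interaction with the load cannot be told apart. The transcript of the receptor was not analysed here either, and the genotype labels were not checked through it.

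Amino acids that are not used for protein are broken down largely in mitochondria. Lysine enters the saccharopine pathway through Aass, a mitochondrial enzyme with a reductase and a dehydrogenase part, and histidine is converted to urocanate by Hal, histidine ammonia-lyase, best known from liver and skin. The branched-chain amino acids first lose their amino group to Bcat2, the mitochondrial transaminase of muscle and heart, and their ketoacids are then committed to breakdown by the branched-chain ketoacid dehydrogenase complex, built from Bckdha and Bckdhb (the alpha and beta chains of its E1 part), Dbt (E2) and the shared subunit Dld (E3). The kinase Bckdk switches this complex off and the phosphatase Ppm1k switches it on. Beyond the complex, Ivd and Mccc1 act on the leucine branch and Hibch on the valine branch. In the heart the branched-chain pathway is known to be controlled in part by the transcription factor Klf15 and to be lowered in failing hearts.

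The tissue carried its defining markers: Myh6, the fast myosin heavy chain of the adult mouse ventricle, lay between 13.33 and 13.48 in the 6 hearts, and cardiac troponin T, Tnnt2, between 14 and 14.04. Array medians over the 21789 tested rows lay between 7.08 and 7.16. Over these rows limma called 209, 113 of them higher in the transgenic hearts, at a Benjamini-Hochberg adjusted p below 0.05, and the median log2 difference was -0.01. In whole hearts a change in the number of cells of one type and a change in the RNA per cell cannot be told apart.

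Aass and Hal were higher in the transgenic hearts, and the 8 genes of the branched-chain pathway showed no call in either direction. Of the 10 genes, 2 passed at a limma adjusted p below 0.05, both upward. Over all tested rows 0.959% passed, 0.519% in the upward direction. Because the set was assembled with this contrast in view, nothing is read from the count. The median log2 difference of the 10 was -0.03, with 3 genes above 0 and 7 below.

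Aass, the entry enzyme of lysine breakdown, had log2 values of 5.42, 5.46 and 5.3 in the wild-type hearts and of 6.03, 6.15 and 6.04 in the transgenic hearts. The groups were far apart relative to their spread: the highest wild-type heart lay below the lowest transgenic heart. The mean rose from 5.39 ± 0.08 to 6.07 ± 0.07 (SD, n = 3 each), a 1.60-fold increase with a log2 difference of 0.68 ± 0.07 (SE) and a 95% interval of 0.53 to 0.83 (limma adjusted p = 0.00486). The row of Aass was dim, and its mean over the 6 arrays fell among the lowest 40% of rows, below a log2 value of 6.57. A filter at that level removed it, and it was the single gene of the 10 that did not pass this filter. The processing of such rows compresses differences in general, and its effect on Aass was not tested. In the wild-type hearts the mean of Aass was near that of albumin, Alb (5.21), a liver gene. Whether the signal of Aass there lay above background was not tested.

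Hal, the enzyme that starts histidine breakdown, was at 6.68, 6.64 and 6.63 in the wild-type hearts and at 7.08, 7.08 and 7.14 in the transgenic hearts. Here too the groups did not overlap, and within each group the hearts lay close together, with an SD of 0.03 in both. The wild-type hearts lay near the dim-row level of 6.57. Hal passed the filter at that level with its mean over the 6 arrays, 6.875, which includes the higher transgenic values. Whether the signal of Hal in the wild-type hearts lay above background was not tested. Hal rose 1.37-fold, from 6.65 to 7.1, with a log2 difference of 0.45 ± 0.05 (SE), a 95% interval of 0.33 to 0.57 and a limma adjusted p of 0.0101. The call was lost without wild-type replicate 2 (limma adjusted p = 0.0596) or wild-type replicate 3 (0.0504), with log2 differences of 0.45 and 0.44. The call of Aass held without any 1 of the 6 arrays (0.0122 to 0.0271).

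**Figure D1:**
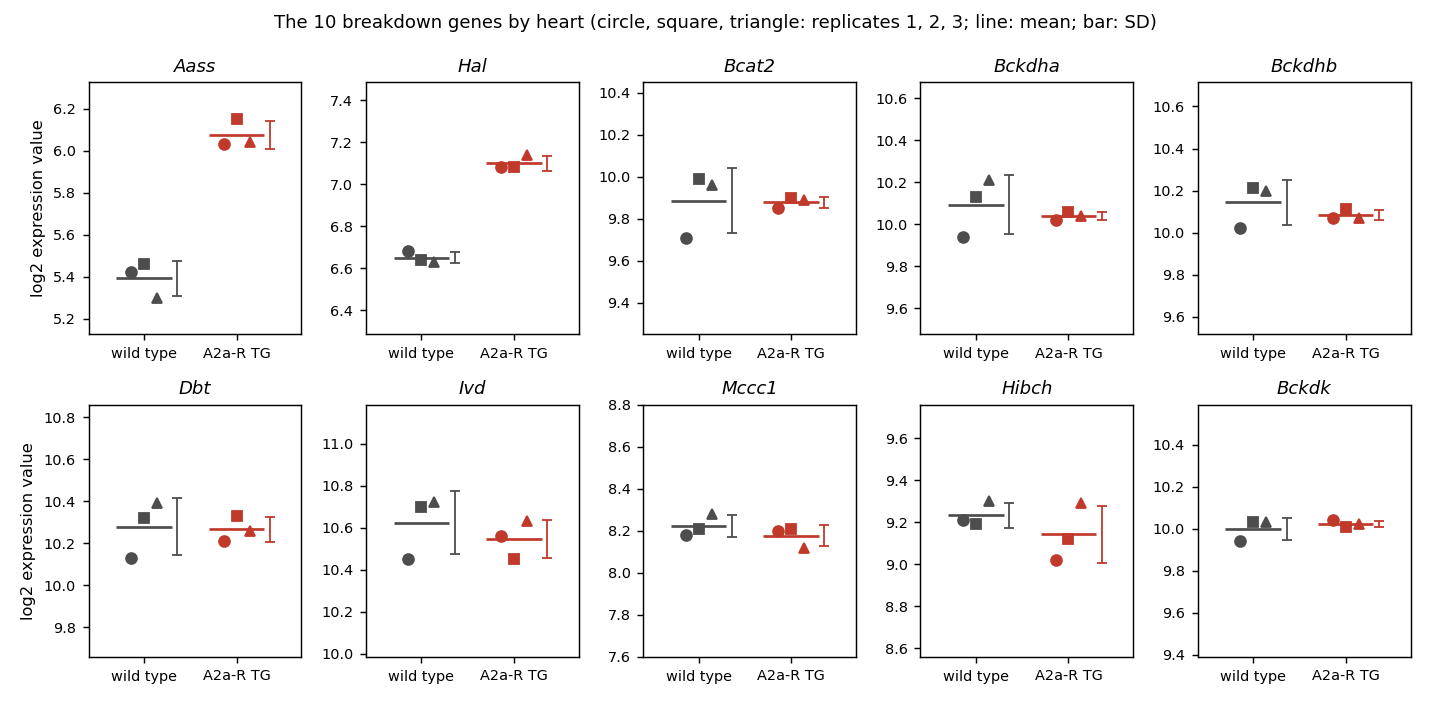
Log2 expression value of each of the 10 genes (vertical axis, every panel spanning the same log2 range) in the wild-type and A2a-R transgenic hearts; points are hearts, horizontal lines are means and bars are SD over 3 hearts. Aass and Hal separate by group, at 5.3 to 5.46 against 6.03 to 6.15 and at 6.63 to 6.68 against 7.08 to 7.14, while the groups overlap in the other panels.

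The promoters of these genes are shown because they are the ones of the set that were called in the same direction. RefSeq promoter windows of assembly GRCm38.p6, each reaching from 250 bases before the start site to 50 bases after it, were found for 9 of the 10 genes (11 windows, with a pair each for Bcat2 and Bckdhb); Dbt had none. Capitals mark matches to the motifs described below, the rest is in lower case, and both are printed 5′ to 3′ on the strand of the gene. The window of Aass lies on the minus strand at chr6:23132937-23133236 and that of Hal on the plus strand at chr10:93488518-93488817.
Aass: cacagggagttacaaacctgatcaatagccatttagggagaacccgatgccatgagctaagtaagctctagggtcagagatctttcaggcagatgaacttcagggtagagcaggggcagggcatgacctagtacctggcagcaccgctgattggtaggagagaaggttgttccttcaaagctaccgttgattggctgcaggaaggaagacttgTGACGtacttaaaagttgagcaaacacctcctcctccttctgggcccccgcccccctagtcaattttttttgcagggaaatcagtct
Hal: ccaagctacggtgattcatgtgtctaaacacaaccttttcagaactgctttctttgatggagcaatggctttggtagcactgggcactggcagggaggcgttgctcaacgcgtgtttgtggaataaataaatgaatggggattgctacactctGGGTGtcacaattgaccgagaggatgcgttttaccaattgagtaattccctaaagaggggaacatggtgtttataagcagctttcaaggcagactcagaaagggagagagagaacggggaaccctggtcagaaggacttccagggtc

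The motifs searched on both strands were the cyclic AMP response element TGACGTCA, its short core TGACG (which also lies inside the full element), the CACCC box bound by Krueppel-like factors, the E-box CACGTG and the amino acid response core TGATGNAA. Aass held 1 short core, whose first base stood at position -37 from the start site, and 20.8% of all 32851 windows hold one. Hal held 1 CACCC box, read as GGGTG on the printed strand and starting at position -97. Boxes of this kind were present in 6 of the 11 windows of the set, against 57.5% of all windows. The full cyclic AMP response element (1.79% of all windows), the E-box (7.15%) and the amino acid response core (3.97%) matched 0 of the 11. The G and C content was 50.3% for Aass and 47.7% for Hal, beside a median of 52.7% over all windows. A match only describes the letters in the window, and the 2 genes shared none of these motifs.

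The other genes of the lysine and histidine routes did not pass. Of 14 further lysine genes measured, 0 passed in limma and 3 had an unadjusted p below 0.05, where 14.8% of all tested rows did. Aldh7a1, the dehydrogenase that takes up the semialdehyde made by Aass, was at 8.85, 8.83 and 8.76 in wild-type and 8.64, 8.62 and 8.7 in transgenic hearts. The groups did not overlap and the direction was opposite to that of Aass, with a log2 difference of -0.16 ± 0.06 (SE) and a limma adjusted p of 0.257. Hykk, the kinase of hydroxylysine, stood at 7.03 in each wild-type heart and at 7.26, 7.13 and 7.29 in the transgenic hearts (0.20 ± 0.06, limma adjusted p = 0.204). Slc25a21, the mitochondrial carrier of oxoadipate, differed by 0.31 ± 0.13 with a limma adjusted p of 0.323, and its groups overlapped. Slc25a21 was dim, with group means of 4.04 and 4.35, below the dim-row level of 6.57. Its difference was 0.17 without transgenic replicate 2 and 0.46 without transgenic replicate 3. Further down the route, Dhtkd1, a dehydrogenase of oxoadipate, was at -0.06 ± 0.08 and Gcdh, the glutaryl-CoA dehydrogenase, at -0.03 ± 0.11.

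Of 10 further genes that use histidine or its products, 0 passed in limma and 2 (20%) had an unadjusted p below 0.05, against 14.8% of all tested rows. Among the enzymes that follow Hal, urocanase, Uroc1, was at -0.03 ± 0.10, the next hydrolase, Amdhd1, at 0.05 ± 0.10, and Ftcd, which passes the remaining one-carbon group to folate, at 0.11 ± 0.08. Amdhd1 was dim, with group means of 5.09 and 5.15, and Uroc1, at 6.64 and 6.61, lay near the dim-row level of 6.57. Hnmt, which methylates histamine, differed by 0.18 ± 0.09, Carns1, the carnosine synthase, by 0.17 ± 0.07 and Hdc, which makes histamine from histidine, by -0.17 ± 0.08, with limma adjusted p of 0.389, 0.308 and 0.397. The 95% intervals of the 10 genes lay between -0.36 and 0.38.

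Among the branched-chain genes, the transaminase Bcat2 was at 9.71, 9.99 and 9.96 in the wild-type hearts and at 9.85, 9.9 and 9.89 in the transgenic hearts. Its group means were 9.89 ± 0.15 and 9.88 ± 0.03 (SD, n = 3), with a log2 difference of -0.01 and a 95% interval of -0.19 to 0.18 (limma adjusted p = 0.982). Wild-type replicate 1 was the lowest heart and the other wild-type hearts were the highest, so the transgenic values lay inside the wild-type range.

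The subunits of the ketoacid dehydrogenase complex had no call either. Bckdha was at 9.94, 10.13 and 10.21 in wild-type and 10.02, 10.06 and 10.04 in transgenic hearts, a log2 difference of -0.05 with a 95% interval of -0.23 to 0.12. Bckdhb was at 10.02, 10.21 and 10.2 against 10.07, 10.11 and 10.07, a difference of -0.06 with an interval of -0.22 to 0.10. Dbt was at 10.13, 10.32 and 10.39 against 10.21, 10.33 and 10.26, a difference of -0.01 with an interval of -0.19 to 0.17. In these 3 genes wild-type replicate 1 was the lowest heart, the transgenic hearts lay within the wild-type range, and limma adjusted p was 0.745 or above. Dld, the E3 subunit shared with other dehydrogenases, had a wider spread (10.27, 10.68 and 10.51 against 10.61, 10.77 and 10.49) and a difference of 0.14 ± 0.11 (SE), which ranged from 0.03 without wild-type replicate 1 to 0.23 without wild-type replicate 2 when 1 array was left out.

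The regulators of the complex differed from each other in their values. Bckdk, the kinase that inactivates it, was at 9.94, 10.03 and 10.03 in the wild-type and 10.04, 10.01 and 10.02 in the transgenic hearts, with a log2 difference of 0.02 ± 0.06 (SE) and a 95% interval of -0.11 to 0.15. Ppm1k, the phosphatase that reactivates the complex, was at 9.32, 9.41 and 9.46 in the wild-type and at 9.66, 9.71 and 9.78 in the transgenic hearts. Every transgenic heart lay above every wild-type heart, and the log2 difference was 0.32 ± 0.06 with a 95% interval of 0.17 to 0.47, a ratio of 1.25, but Ppm1k did not pass over the whole table (limma adjusted p = 0.0711). It passed in 3 of 14 alternative fits, with limma adjusted p of 0.0342 after a further quantile normalization, 0.0246 without the dimmest 40% of rows and 0.0119 with a trended and robust variance prior. Among the fits in which it did not pass were all those with 1 array left out (limma adjusted p of 0.126 to 0.209) and that with a replicate block (0.114). Whether the difference of Ppm1k exceeded that of Bckdk was not tested.

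**Figure D2:**
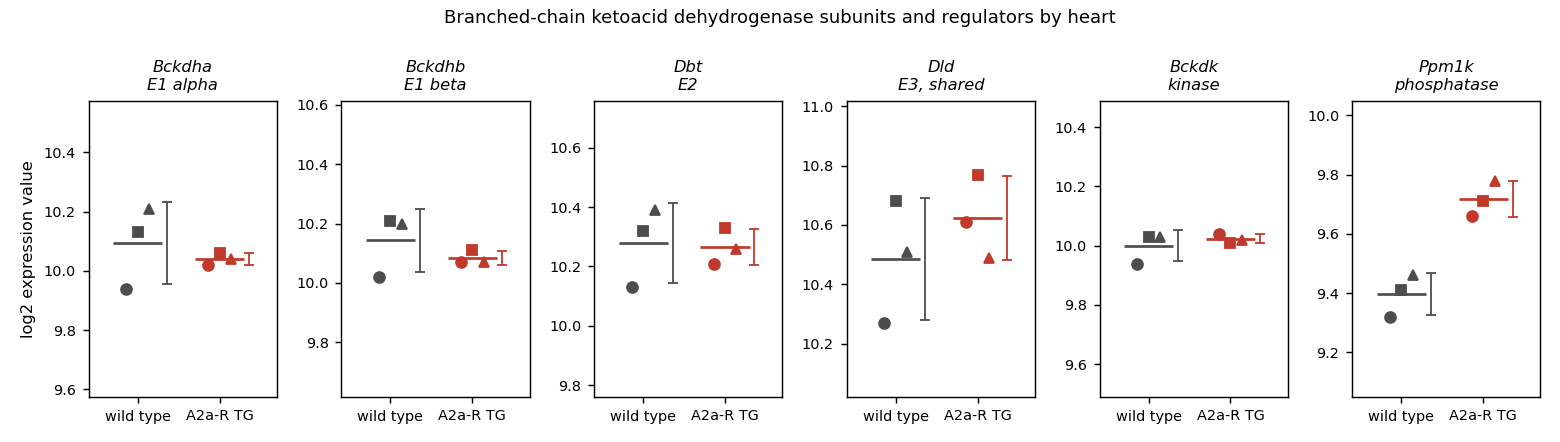
Log2 expression value (vertical axis) of the subunits of the branched-chain ketoacid dehydrogenase complex, its kinase Bckdk and its phosphatase Ppm1k in each heart; circles, squares and triangles are replicates 1, 2 and 3, horizontal lines are means and bars are SD over 3 hearts. Ppm1k is the panel in which the groups do not overlap, with wild-type hearts at 9.32 to 9.46 and transgenic hearts at 9.66 to 9.78.

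The enzymes of the later steps did not pass either. Ivd, the dehydrogenase of isovaleryl-CoA in leucine breakdown, was at 10.45, 10.7 and 10.72 in wild-type and 10.56, 10.45 and 10.63 in transgenic hearts, a log2 difference of -0.08 with a 95% interval of -0.28 to 0.13. Mccc1, the biotin-carrying chain of methylcrotonyl-CoA carboxylase in the same branch, was at 8.18, 8.21 and 8.28 against 8.2, 8.21 and 8.12, a difference of -0.05 with an interval of -0.18 to 0.09. Hibch, the hydrolase of the valine branch, had a difference of -0.09 with an interval of -0.27 to 0.09: its values were 9.21, 9.19 and 9.3 in wild-type and 9.02, 9.12 and 9.29 in transgenic hearts. The groups overlapped in each of these genes, and limma adjusted p lay between 0.661 and 0.777.

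Of 20 further branched-chain genes measured, 0 passed in limma and 1, Ppm1k, had an unadjusted p below 0.05; 8 were higher and 11 lower, with a median log2 difference of -0.01. Mmab, which prepares the vitamin B12 cofactor of methylmalonyl-CoA mutase, differed by -0.15 ± 0.08 (SE, limma adjusted p = 0.425). Klf15, the transcription factor named above, was at 8.94, 8.88 and 8.86 in wild-type and 9.02, 8.95 and 8.99 in transgenic hearts. The highest wild-type and the lowest transgenic heart were nearly level, and the difference of 0.09 ± 0.06 did not pass (limma adjusted p = 0.491). Slc25a44, the mitochondrial carrier of branched-chain amino acids, differed by 0.04 ± 0.07. Over the 3 lists of further pathway genes together, 44 were measured, 23 were higher and 20 lower, and 6 (13.6%) had an unadjusted p below 0.05. The groups did not overlap in 11 of the 44 (25%), with 5 higher and 6 lower, where 20.3% of all tested rows did not overlap.

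**Figure D3:**
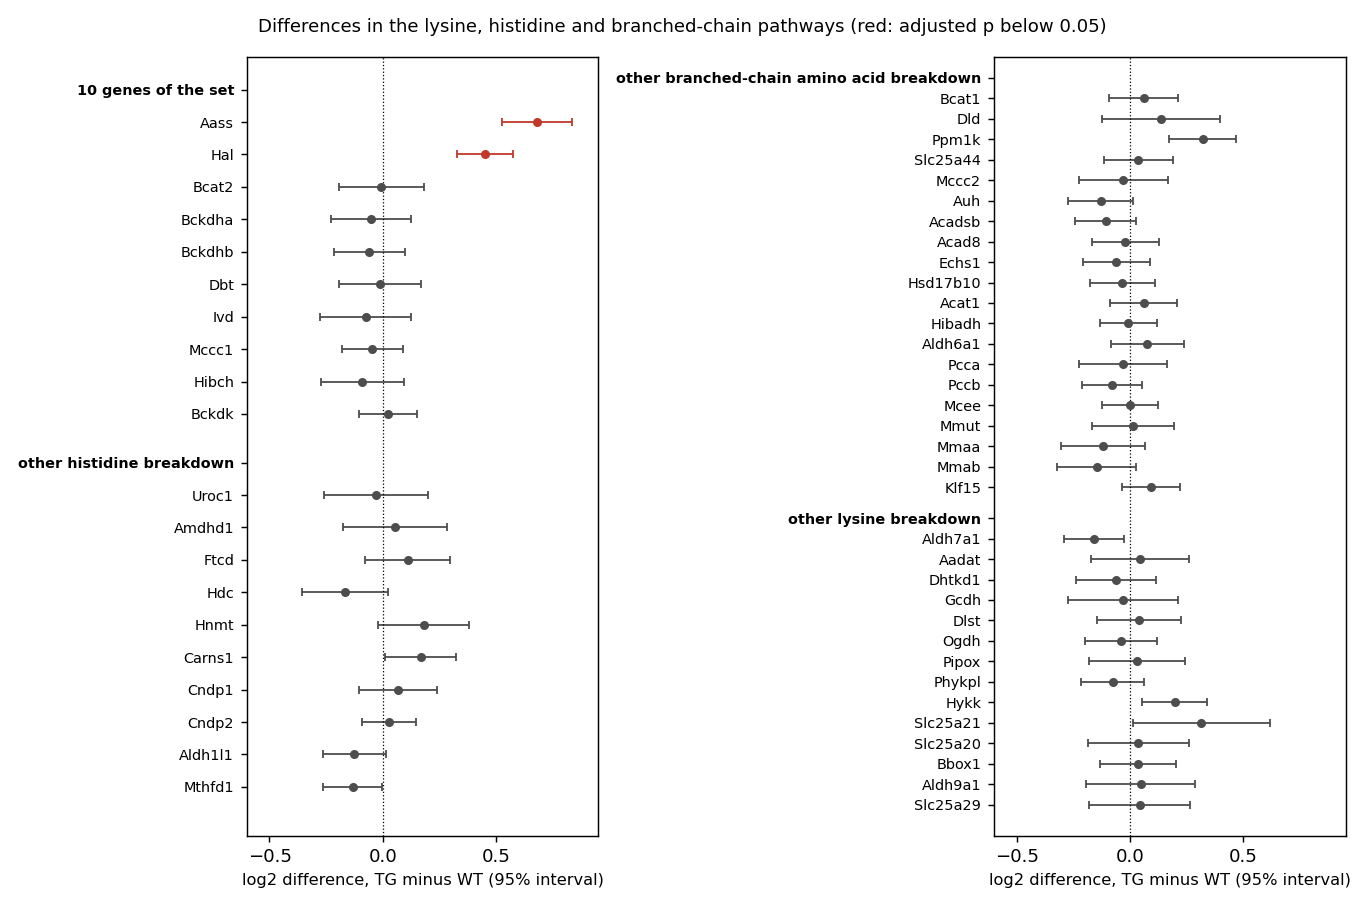
Log2 difference, transgenic minus wild type (horizontal axis), with its 95% interval from limma for the 10 genes and the 44 further measured genes of the 3 pathways; red marks an adjusted p below 0.05. Aass (0.68) and Hal (0.45) are the red points, and the interval of Ppm1k runs from 0.17 to 0.47.

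Heart by heart, wild-type replicate 1 stood low for most of the 8 branched-chain genes of the set. In 7 of the 8, with Hibch as the exception, wild-type replicate 1 lay below both other wild-type hearts, and in 6 it held the lowest value of all 6 hearts, for Ivd jointly with transgenic replicate 2. The share of all tested rows with such an order was not computed. The gap between replicate 1 and the mean of the other wild-type hearts was -0.27 in Bcat2, -0.26 in Ivd, -0.23 in Bckdha and -0.04 in Hibch. Averaged over the 8 genes, the deviation from the 6-heart mean was -0.09, 0.06 and 0.10 in the wild-type hearts and -0.04, -0.02 and -0.0002 in the transgenic hearts. Without wild-type replicate 1 the differences of all 8 were negative, from -0.16 to -0.01 with a median of -0.10, and the smallest limma adjusted p was 0.374.

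This low standing of wild-type replicate 1 was shared by other genes of mitochondrial metabolism. A reference list held 27 measured genes for enzymes of the citric acid cycle, respiratory chain subunits, import and outer membrane proteins and nuclear regulators of mitochondria. Of these, 22 were lower in that heart than in both other wild-type hearts, and their mean deviation there was -0.09, with values between -0.01 and 0.05 in the remaining hearts. That order held for 8 of 12 cardiomyocyte, 3 of 17 macrophage and 0 of 11 fibroblast markers. Its share of all tested rows was not computed, so the counts do not set these genes apart from the rest of the array. Fibroblast markers moved the other way. Their summed linear level was 19482 in wild-type replicate 1 against 16555 to 17024 in the other 5 hearts. Mean deviations in that replicate were 0.16 for fibroblast, 0.18 for atrial and 0.11 for endothelial markers. They were -0.04 for cardiomyocyte and -0.10 for macrophage markers. The atrial and macrophage values were not particular to that heart. Atrial markers were at 0.35 in wild-type replicate 3 and 0.15 in transgenic replicate 1, and macrophage markers at -0.25 in wild-type replicate 3. The part of these cell types in the values was not tested. Of the 27 genes 0 passed in limma and 1, the nuclear coactivator Ppargc1a, had an unadjusted p below 0.05; the list's median log2 difference was 0.05 with 21 higher and 6 lower. Ppargc1a was at 0.30 ± 0.08 (SE), the nuclear receptor Ppara at 0.13 ± 0.07 and the chaperone Hspd1 at -0.13 ± 0.06.

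**Figure D4:**
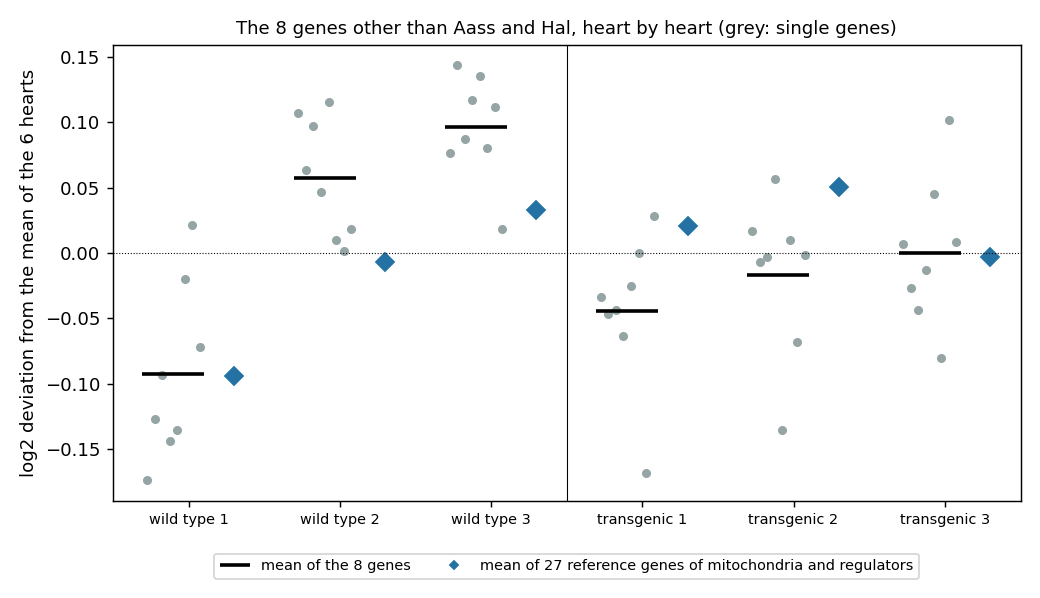
Deviation of the log2 value from the mean of the 6 hearts (vertical axis) in each heart, with grey points for the 8 genes other than Aass and Hal, black lines for their mean and blue diamonds for the mean of 27 reference genes of mitochondria and their regulators. Wild-type replicate 1 is lowest for both means (-0.09 each), and the 8 genes stand highest in wild-type replicate 3 (0.10).

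Macrophage markers lay higher in the transgenic hearts, as Aass and Hal did. Of 17 measured markers, 16 were higher, with a median log2 difference of 0.32; 11 had an unadjusted p below 0.05, the groups did not overlap in 13, and 2 rose at a limma adjusted p below 0.05, Lgals3 by 0.61 ± 0.06 and Fcer1g by 0.49 ± 0.08 (SE). The summed linear level of the list lay between 6994 and 7888 for the wild-type group and between 9435 and 10154 for the transgenic group, and its part in the values of Aass and Hal was not tested. Hal and Aass are known from liver and Hal from skin, so markers of these tissues were read as well. Of 7 hepatocyte markers 0 passed in limma, with albumin, Alb, between 5.03 and 5.49 without the transgene, between 5.13 and 5.31 with it, and a summed level of 394 to 431 and 404 to 459. Of 5 keratinocyte markers 0 passed, and their summed level was 308 to 324 and 299 to 335. Hepatocyte and keratinocyte markers each had 1 gene with an unadjusted limma p below 0.05 (14.3% and 20%), near the 14.8% of all tested rows. These genes were Apoa1 (0.13) and Lor (0.29), both higher in the transgenic hearts. In the hepatocyte list 6 genes were higher and 1 lower, and in the keratinocyte list 1 was higher and 4 lower. Their part in the values of Aass and Hal was not tested. The medians of the 11 lists other than macrophages, among them cardiomyocyte, fibroblast, endothelial and fat cell markers, lay between -0.17 (atrial) and 0.12 (hepatocyte) on the log2 scale. In 3 of these lists 1 gene passed in limma. Acta2, the smooth muscle actin, rose by 0.73 (limma adjusted p = 0.0106), Alas2, the heme synthesis enzyme of red cell precursors, fell by 0.77 (0.00486), and Nppa, the gene of an atrial natriuretic hormone, fell by 1.18 (0.0456). Of the 9 smooth muscle and pericyte markers 4 were higher and 5 lower, with a median of -0.02. Only 3 of 7 listed red cell markers were measured, 1 higher and 2 lower, with a median of -0.02. Of the 7 atrial markers 1 was higher, Tbx5 (0.34), and 6 were lower, among them Sln (-0.01). With 1 array left out, the call of Alas2 held in each fit, that of Acta2 was lost without wild-type replicate 1 or 3 (0.0594 and 0.0565), that of Nppa in each fit (0.0636 to 0.124) and that of Fcer1g in each fit but that without wild-type replicate 2 (0.0956 to 0.138). The part of these genes in the values of Aass and Hal was not tested either.

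For Aass and Hal, the genes with the most similar pattern across the 6 hearts were found by the root mean square difference between deviations from each gene's own 6-heart mean, over 19937 other genes. Closest to Aass were Nudt4, a diphosphoinositol phosphohydrolase (0.05, log2 difference 0.72), the chemokine Ccl6 (0.06, 0.62) and Wfdc17 (0.06, 0.60). Closest to Hal were Tppp3, a tubulin-binding protein (0.03, 0.41), the Golgi mannosidase Man1a (0.04, 0.39) and Nme5 (0.05, 0.49). The measure selects genes with a group difference of the same size, so these differences follow from the choice and are given as a description.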

How the data were processed

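Total RNA of 6 hearts was measured on 1 array each, 3 per group. The deposited values are log2 expression values; RMA and Partek are named in the submitters' processing notes. RMA subtracts background, makes the arrays' distributions alike and joins probes to 1 value, so global shifts are largely removed and differences of dim rows compressed. A small shift remained over the tested rows: the median of transgenic replicate 2 was 7.08, against 7.13 to 7.16 in the other arrays. No version, setting or genome build is given in the sources used here.

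Of 28853 rows, 21789 carried exactly 1 gene symbol in the platform annotation (several: 1621; none: 5443) and were tested over the whole table with limma 3.58.1 (R 4.3.3, lmFit and eBayes, transgenic minus wild type, no covariate), with Benjamini-Hochberg adjustment and a threshold of 0.05. Where a gene had several rows, the row with the highest mean was used. The design text gives separate mice, so p-values measure the spread between animals. No pair of arrays was identical (494 to 785 equal rows). The same code was tested on simulated data with known changes.

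The 10 genes, the pathway and marker lists and the tests were chosen with earlier results of these data known. Named are the 10 genes, of each other pathway list the called genes or else the 3 largest differences, Ppm1k, Dld, Klf15 and Slc25a44, and the 3 genes nearest to Aass and to Hal. Uroc1, Amdhd1, Ftcd, Dhtkd1, Gcdh and the single cell type markers were named after their values were seen. The rule also held the receptor transcript, which was not analysed here. Alternatives were a replicate block, further normalization or centring, a filter on dim rows, another variance prior, array weights, all rows, another threshold, the mean of a gene's rows and leaving out each array. Promoter windows and motif matches were taken from RefSeq sequences of GRCm38.p6.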

Additional observations from a re-analysis of the deposited data

How the results depend on the processing

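Over the alternatives run for the 10 genes (139 values), 136 kept their direction, or stayed without a call, and their side of the threshold, and 3 lost the call, all of them Hal. The 8 branched-chain genes of the set were not called in any alternative, but the sign of Bcat2, Bckdha, Dbt and Bckdk changed with the array left out, so no direction is given for them. Aass kept its call in all 13 fits that contained it (log2 difference 0.63 to 0.71). The set held 1 called gene, Hal, without the dimmest 40% of rows, since that filter removes Aass. Leaving out 1 array gave 1 to 2 called genes of the set, 0 called genes among the 44 further pathway genes, and 84 to 147 changed rows over the table. Of the 44, 1 gene, Ppm1k, was called after a further quantile normalization, without the dimmest 40% of rows, with a trended and robust prior and at an adjusted p below 0.10. Rows changed over the table numbered 493 without the dimmest 40% of rows (184 higher, 309 lower), 579 with the trended and robust prior (240 higher, 339 lower), and the wider threshold of 0.10 gave 476. Whether the replicate numbers pair the hearts was not settled. Same-numbered hearts correlated at 0.155, -0.011 and -0.104 in their deviations from the group means over 21789 rows. These values, from 3 hearts per group, cannot decide it. With the replicate number as a block, 97 rows and 1 gene of the set, Aass, were called, Hal had a limma adjusted p of 0.0575 and Abat of 0.0517; the cause was not tested. The mean of a gene's rows changed no value of the 10 genes, each of which had 1 row. With 3 arrays per group the median SE of a log2 difference was 0.0731 over the table.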

Other observations

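Among genes for the breakdown of other amino acids, 33 were measured and 1 passed. Abat, which breaks down the transmitter GABA and links it to the citric acid cycle, was at 9.29, 9.22 and 9.34 in the wild-type hearts and at 8.72, 8.65 and 8.94 in the transgenic hearts. All 3 transgenic hearts lay below the wild-type hearts, and Abat fell by 0.51 on the log2 scale (SE 0.08, 95% interval -0.71 to -0.32, limma adjusted p = 0.0346). The call was lost without any 1 array other than transgenic replicate 3 (0.0922 to 0.125), and with all rows of the table (0.055). Of the 33 genes, 16 were higher and 17 lower with a median of -0.01. An unadjusted limma p below 0.05 was found for 6 (18.2%), near the 14.8% of all tested rows.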
